A study of Mus musculus with 12 samples.

Results

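The genes described here are the 4 members of the early growth response (Egr) family of transcription factors, Egr1, Egr2, Egr3 and Egr4, and their 2 partner genes Nab1 and Nab2. They were taken by gene symbol, which gave 6 of the 56860 named genes in the count table. RNA was sequenced from primary oligodendrocytes (OLs), the cells that make myelin in the brain. The cells came from the cortex of newborn C57BL/6J mice (medial prefrontal cortex according to the labels), were selected with beads against the surface antigen O4, expanded with PDGF-AA and then differentiated with insulin, triiodothyronine and ciliary neurotrophic factor. One group of 6 libraries received siEgr2, a small interfering RNA against Egr2, and the other 6 libraries received siNC, a scrambled siRNA, and both were harvested 48 h after transfection. The study's methods also speak of an interference plasmid, so the form of the reagent is uncertain. All cells of both groups had passed through the same selection, growth factors and transfection, so there is no untransfected group. The labels do not say that the libraries came from separate cultures or animals, and the p-values therefore measure only the spread between these libraries, which may be technical.

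Egr proteins are zinc finger factors that bind a GC-rich DNA element, and their genes are immediate early genes, switched on within minutes when growth factors, calcium or neuronal activity act through the ERK kinases, serum response factor (SRF) and CREB. Nab1 and Nab2 have no DNA-binding domain of their own; they dock on Egr1, Egr2 and Egr3 and in most settings repress transcription through the CHD4 and histone deacetylase complex NuRD, and Nab genes can in turn be Egr targets, which closes a feedback loop. Egr4 lacks the Nab docking domain. Egr2, also called Krox20, is best known from Schwann cells of peripheral nerve, where it drives the myelin program together with Sox10, and the question here was what it does in OLs of the brain.

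The start regions of Egr2, Egr4, Nab1 and Nab2 were searched for the elements that this circuit reads, and those of Egr1 and Egr3 were not. The sequences below are shown because they hold matches to the SRF or CREB elements before starts of Egr2 and Egr4 and to the Egr element before that of Nab1. They are RefSeq promoter windows of 250 bases before a transcript start on GRCm38, written 5′ to 3′ on the strand of the gene, with the searched motifs in capitals. The motifs were the Egr element GCGNGGGCG, the CArG box of SRF, and ACGTCA, which is part of the cyclic AMP response element bound by CREB, each searched on both strands. In the first Egr2 window, chr10:67537619-67537868, the CArG box lies 72 to 63 bases and the CREB element 56 to 51 bases before the start at base 67537869. A second Egr2 start, at base 67537566, has a different CArG box at the same distance, 72 to 63 bases before it, and no CREB element. Of the other Egr2 starts, those at bases 67537870 and 67537930 share both elements of the first window, and the window of the start at base 67535499 held none of the motifs.
Egr2, first window: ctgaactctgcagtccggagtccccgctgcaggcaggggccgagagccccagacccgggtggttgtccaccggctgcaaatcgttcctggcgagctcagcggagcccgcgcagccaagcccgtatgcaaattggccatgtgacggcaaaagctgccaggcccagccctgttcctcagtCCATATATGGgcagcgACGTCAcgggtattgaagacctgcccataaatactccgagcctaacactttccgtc
Egr2, CArG box of the second start: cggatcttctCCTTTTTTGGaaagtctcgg
The window of Egr4, chr6:85513590-85513839 on the minus strand, holds 2 copies of ACGTCA, 178 to 173 and 110 to 105 bases before the start.
Egr4: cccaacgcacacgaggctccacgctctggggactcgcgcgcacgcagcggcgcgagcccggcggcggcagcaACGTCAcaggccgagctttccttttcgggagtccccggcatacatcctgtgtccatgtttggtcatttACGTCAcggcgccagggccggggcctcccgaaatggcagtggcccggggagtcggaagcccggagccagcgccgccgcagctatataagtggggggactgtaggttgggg
The window of Nab1, on the minus strand of chromosome 1, holds 3 matches to the Egr element, 1 of them in reverse orientation, which lie 141 to 133, 109 to 101 and 38 to 30 bases before the start. Of its 250 bases, 231 lie in exons of longer transcripts, so the matches are shown with their neighbouring bases only.
Nab1, farthest match, reverse: gccccgcggcCGCCCACGCcgggatctgcg
Nab1, middle match: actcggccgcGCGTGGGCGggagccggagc
Nab1, nearest match: gcggggcgggGCGGGGGCGgcggaggtggc
Among 32851 RefSeq promoter windows of this length, 4.70% held the Egr element, 1.47% the CArG box and 6.47% the CREB element. The Nab2 window held none of the 3 motifs. These are matches of letters and not measured binding sites.

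Every member was measured in every library, and all 6 passed the filter on low counts. The siNC libraries held 28682946 to 39383014 counts and the siEgr2 libraries 8034251 to 16683677, and the ribosomal RNA gene Rn18s-rs5 took 0.142% to 1.05% of the counts in siNC and 10.5% to 16.5% in siEgr2. Depth, ribosomal RNA share and treatment separate the libraries in the same way and cannot be told apart. The 7 OL markers, among them Mbp, Mog, Mag, Mobp, Cnp and Cldn11, were all present, and their summed level was 7213 to 8239 CPM (counts brought to a common library total by TMM) in siNC and 6787 to 7069 CPM in siEgr2. Astrocyte markers summed to 7996 to 8693 CPM in siNC, near the OL sum, and to 5085 to 5766 CPM in siEgr2, below it. Of the 7, 5 were called lower by the rule given below, where 5.08% of all tested genes were. Precursor and lineage markers summed to 3107 to 3310 CPM in siNC and 3943 to 4085 CPM in siEgr2. Of the 5, 2 (Pdgfra and Cspg4) were called higher, where 2.63% of all tested genes were. Neither of them was called with library size only. Microglia markers summed to at most 5.80 CPM with Aif1 at 0 in every library, and endothelial markers to at most 6.79 CPM with Cldn5 at 0. Neuron markers (402 to 658 CPM in siNC, 393 to 631 CPM in siEgr2) and fibroblast and pericyte markers (588 to 965 CPM, 604 to 729 CPM) were present in both groups. Of these, 1 of 6 and 2 of 6 were called lower (5.08% of all tested genes were). The neuron sum was mostly Map2 (mean 308 CPM in siNC, 362 CPM in siEgr2) and Tubb3 (114 and 94.5 CPM). Rbfox3 (2.88 and 3.87 CPM) and Snap25 (1.44 and 1.88 CPM) were low. The neuron marker called lower was Stmn2. At the adjusted p alone, Tubb3 was also lower (-0.27, adjusted p = 0.000812, edgeR) and Syt1 higher (0.31, adjusted p = 0.0266, edgeR). Only 2 of the 4 endothelial markers could be tested, of which 1 was called lower (5.08% of all tested genes were). Of the 6 microglia markers, 3 could be tested and 0 were called. Schwann cell markers summed to 7.35 to 13.3 CPM in siNC and 3.76 to 7.91 CPM in siEgr2, and Ncmap and Foxd3 were under 1 CPM. In bulk RNA such as this, fewer cells of a type and less RNA per cell cannot be told apart, and the part of these cell types in the results below was not tested.

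Per length of gene, which is the scale on which different genes can be compared, Egr1 stood highest of the 6 and Egr4 lowest in both groups. In siNC the levels per kilobase of exon were 20.9 ± 2.68 CPM for Egr1, 14.4 ± 0.721 for Nab1, 12.7 ± 1.29 for Nab2, 1.76 ± 0.272 for Egr3, 1.57 ± 0.373 for Egr2 and 0.277 ± 0.119 for Egr4 (mean ± SD, n = 6 libraries). Both corepressor genes were therefore several-fold above Egr2, Egr3 and Egr4, and Nab2 stood 7.19-fold above Egr3. The levels of neighbours in this order did not overlap, except for Nab1 and Nab2, in this order in 5 of 6 libraries, and Egr3 and Egr2, in this order in 4 of 6 libraries. In siEgr2 the order of the means was the same, and Nab1 and Nab2 again overlapped. Egr3 and Egr2 no longer did, with the lowest Egr3 library at 2.03 and the highest Egr2 library at 1.43 CPM per kilobase. Egr2 was a gene of low expression in these cultures, above 29.0% of the tested genes by its mean CPM in siNC.

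**Figure D1:**
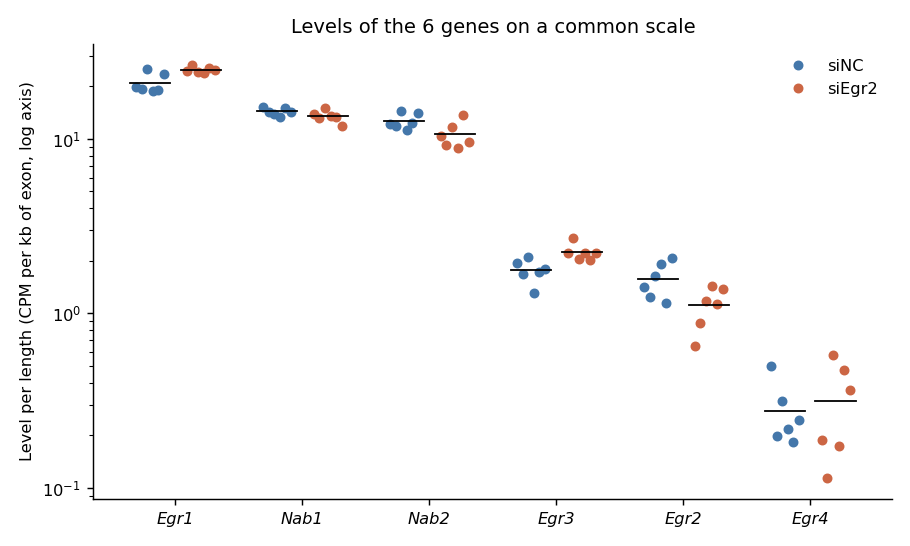
Level of each gene in each library, in CPM per kilobase of exon on a log axis, with siNC in blue and siEgr2 in orange and a bar at each mean (n = 6 libraries per group). Egr1, Nab1 and Nab2 lie between 8.82 and 26.6 and Egr3, Egr2 and Egr4 at or below 2.70, in the same order of means in both groups.

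The main question was how the family and its partners differed after interference with Egr2, and none of the 6 genes was called. Calls required both a log2 fold change beyond 0.5 in either direction and an adjusted p below 0.05, by the quasi-likelihood test of edgeR, with p-values adjusted by Benjamini-Hochberg over 16600 tested genes. By this rule 1281 genes (7.72%) were called, 844 lower (5.08%) and 437 higher (2.63%) in siEgr2, against 0 of the 6 members. Scaling by library size only gave 1737 lower (10.5%) and 237 higher (1.43%). At the adjusted p alone 3300 genes (19.9%) passed, 11.3% lower and 8.57% higher, and of the members only Egr1 did, upward. In 1851 genes (11.2%) the 2 groups did not overlap, and in all 6 members they did. At an unadjusted p under 0.05 in edgeR's test, 2 members lay higher (Egr1 and Egr3) and 2 lower (Egr2 and Nab2), where 15.1% of all tested genes lay higher and 16.9% lower, and DESeq2 and limma-voom also called 0 of the 6. Of all tested genes, DESeq2 called 5.54% lower and 3.36% higher, and limma-voom 5.26% lower and 2.6% higher.

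**Figure D2:**
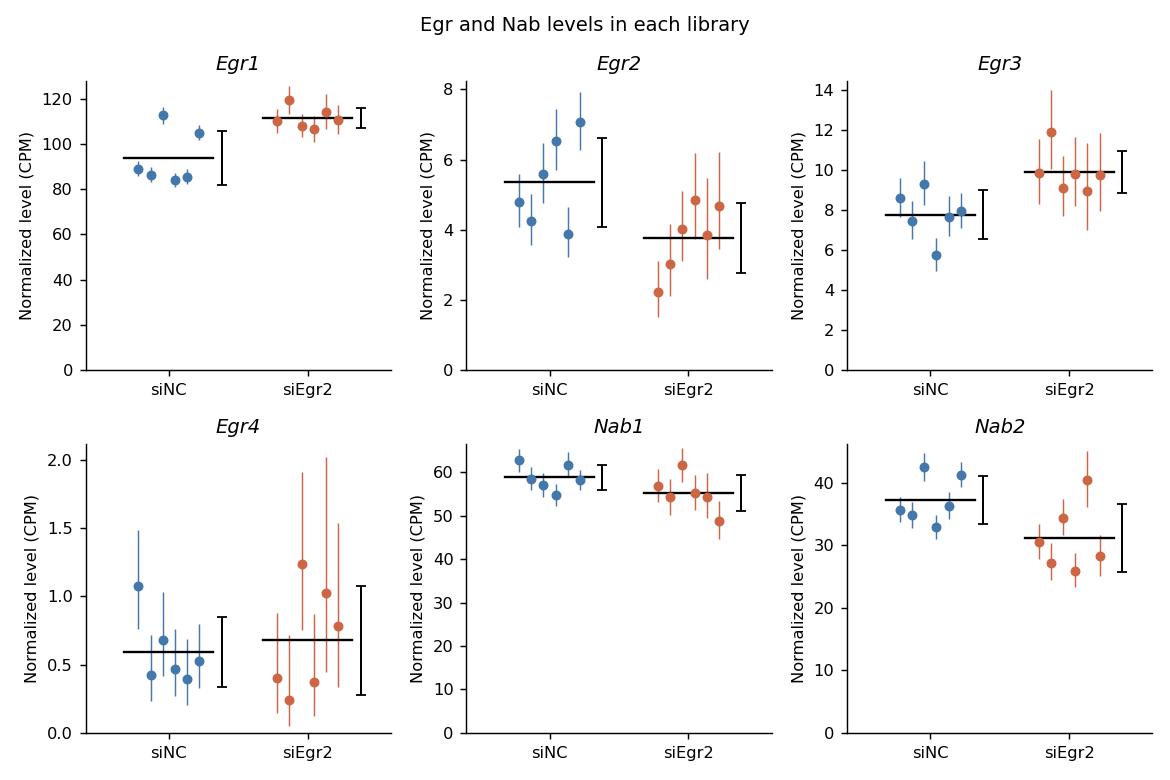
Normalized level (CPM, linear axis from 0) of each gene in the siNC (blue) and siEgr2 (orange) libraries in the order of their numbers. Thin lines are 95% Poisson intervals of the count, black bars the group mean and side brackets the SD over 6 libraries. Every gene overlaps between the groups, with Egr1 and Egr3 on average higher, Egr2 and Nab2 lower, and Egr4 with the widest counting intervals for its level.

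Egr2, the gene that the siRNA targets, lies at chr10:67535475-67542188 on the plus strand of GRCm38. In the siNC libraries its level was lowest at 3.89 CPM, had a median of 5.19 CPM and was highest at 7.06 CPM. In the siEgr2 libraries the lowest was 2.22, the median 3.93 and the highest 4.86 CPM. The siEgr2 replicates 1, 2 and 5, at 2.22, 3.01 and 3.84 CPM, lay below every siNC library, and the other 3 lay inside the siNC range. The mean was 5.35 ± 1.27 CPM in siNC and 3.77 ± 1.01 CPM in siEgr2 (SD, n = 6). The log2 fold change was -0.51 (standard error 0.21), or 70.2% of the siNC level with a 95% interval from 51.7% to 95.2%, and edgeR gave an adjusted p of 0.0981. For the difference in mean log2 level, the exact permutation test of 6 against 6 libraries (two-sided) gave p = 0.0433. The p-values of this test are not adjusted over genes, here and for the other members. The siNC libraries held 119 to 295 counts of Egr2 and the siEgr2 libraries 30 to 65. Its coefficient of variation was 23.7% in siNC and 26.7% in siEgr2, against 7.67% and 15.4% from counting alone. Of all tested genes, 1513 (9.11%) had a more negative log2 fold change than the targeted gene. With library size only, Egr2 was called at -0.70 (adjusted p = 0.0144), and the adjusted p of Egr2 lay between 0.0144 and 0.379 over all alternatives.

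Egr1, a rapidly induced factor and the most abundant of the family in these cells, lies on chromosome 18 from 34859823 to 34864984 on the plus strand. In the siNC libraries its lowest level was 83.9 CPM, its median 87.7 CPM and its highest level 113 CPM. In siEgr2 the lowest was 106, the median 110 and the highest 119 CPM. The siEgr2 libraries lay close together at the upper end of the siNC range, and 2 of them were above every siNC library. The mean was 93.7 ± 12.02 CPM in siNC and 111 ± 4.62 CPM in siEgr2 (SD, n = 6). The log2 fold change of Egr1 was 0.25 (standard error 0.070), or 119% of the siNC level with a 95% interval from 107% to 132% (adjusted p = 0.0187, edgeR; two-sided exact permutation test, p = 0.0173). Its size is below the threshold of 0.5, so Egr1 was not called. With counts of 2611 to 4384 in siNC and 891 to 1749 in siEgr2, Egr1 varied in siNC well beyond counting error (coefficient of variation 12.8%, against 1.79% from counting), which came from siNC replicates 3 and 6 at 113 and 105 CPM. With library size only, edgeR gave a log2 fold change of 0.068 (adjusted p = 0.502).

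Egr3, which shares its DNA element with Egr1 and Egr2 and also binds Nab proteins, lies on chromosome 14 from 70077203 to 70082614 on the plus strand. Its lowest level in siNC was 5.74 CPM, its median 7.77 CPM and its highest level 9.28 CPM. In siEgr2 the lowest was 8.96, the median 9.77 and the highest 11.9 CPM. In siEgr2 4 libraries lay above every siNC library, and the other 2 lay at the upper end of the siNC range. The mean was 7.77 ± 1.20 CPM in siNC and 9.88 ± 1.05 CPM in siEgr2 (SD, n = 6). The log2 fold change was 0.35 (standard error 0.12), or 127% of siNC with a 95% interval from 106% to 153%. By edgeR the adjusted p was 0.0589, and the two-sided exact permutation test gave p = 0.00649. Without siNC replicate 3 the adjusted p by edgeR was 0.0373, and with library size only the log2 fold change was 0.17 (adjusted p = 0.321, edgeR). The counts behind these values were 196 to 331 in siNC and 70 to 147 in siEgr2.

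Egr4, the member without the Nab docking domain, lies on chromosome 6 from 85511121 to 85513589 on the minus strand and was close to the limit of what these libraries can measure. The siNC libraries held 12 to 37 counts of it and the siEgr2 libraries 3 to 20. Its level was lowest at 0.393, with a median of 0.498 and a highest value of 1.08 CPM in siNC, and in siEgr2 these were 0.244, 0.592 and 1.24 CPM. The groups overlapped over most of their range (two-sided exact permutation test, p = 0.792). The log2 fold change of 0.17 (standard error 0.44) had a 95% interval from -0.77 to 1.11 (adjusted p = 0.834, edgeR), and its sign turned with library size only and without siEgr2 replicate 3. The interval runs from 58.7% to 215% of the siNC level, and differences inside it were not detectable at this depth.

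The corepressor gene Nab1 lies on chromosome 1 from 52457294 to 52500679 on the minus strand and had the smallest coefficient of variation of the 6 in siNC, 5.03%, while in siEgr2 that of Egr1, 4.15%, was smaller. In siNC its level was lowest at 54.8 CPM, with a median of 58.3 and a highest value of 62.7 CPM. In siEgr2 the lowest was 48.8, the median 54.8 and the highest 61.6 CPM. The groups overlapped, with 3 siEgr2 libraries below every siNC library. The mean was 58.8 ± 2.96 CPM in siNC and 55.2 ± 4.14 CPM in siEgr2 (SD, n = 6), and the log2 fold change was -0.091 (standard error 0.058, 95% interval from -0.21 to 0.031, adjusted p = 0.302, edgeR). With 1770 to 2432 counts in siNC and 425 to 997 in siEgr2, Nab1 was measured more precisely than Egr2, and its interval leaves out a change past the threshold of 0.5. With library size only the log2 fold change was -0.27 and passed the adjusted p (0.00373, edgeR).

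Nab2, the second corepressor gene and in many cells itself an early response gene, lies on chromosome 10 from 127660918 to 127668568 on the minus strand. In siNC its lowest level was 32.9 CPM, its median 36.0 CPM and its highest level 42.5 CPM. In siEgr2 the lowest was 25.9, the median 29.4 and the highest 40.5 CPM. Below every siNC library lay 4 of the siEgr2 libraries, while replicates 3 and 5, at 34.5 and 40.5 CPM, lay inside the siNC range. The mean was 37.3 ± 3.80 CPM in siNC and 31.2 ± 5.45 CPM in siEgr2 (SD, n = 6). The log2 fold change was -0.26 (standard error 0.10), or 83.4% of siNC with a 95% interval from 71.8% to 96.8%, and edgeR gave an adjusted p of 0.0843. The two-sided exact permutation test gave p = 0.0390. Without siEgr2 replicate 5 it was -0.35 (adjusted p = 0.0127, edgeR), with library size only -0.44 (adjusted p = 0.00569, edgeR) and in libraries thinned to the smallest total -0.17 (adjusted p = 0.537, edgeR).

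Nab2 shares exon bases with 3 genes on the opposite strand, and whether the counting used strand is not given in the sources used here, so some reads of these genes cannot be told apart from those of Nab2. The antisense gene Gm16229 shares 1050 exon bases, with 24 to 61 counts in siNC and 0 to 21 in siEgr2, few beside the 1109 to 1726 and 290 to 558 counts of Nab2. Its log2 fold change was -0.91 (adjusted p = 0.191, edgeR). Stat6, a transcription factor of interleukin-4 signalling, shares 40 bases, had 253 to 422 counts in siNC and 47 to 122 in siEgr2, and was called lower, from 8.75 ± 0.817 to 6.04 ± 1.26 CPM (SD, n = 6), at -0.53 (adjusted p = 0.0129, edgeR). Its call was lost without siNC replicate 6, siEgr2 replicate 1 or siEgr2 replicate 2, where the log2 fold change came under the threshold. Nemp1, a nuclear envelope protein gene, shares 151 bases and had 602 to 840 and 169 to 381 counts, with a log2 fold change of 0.21 (adjusted p = 0.0806, edgeR). No annotated exon of another gene overlapped the exons of Egr1, Egr2, Egr3, Egr4 or Nab1.

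**Figure D3:**
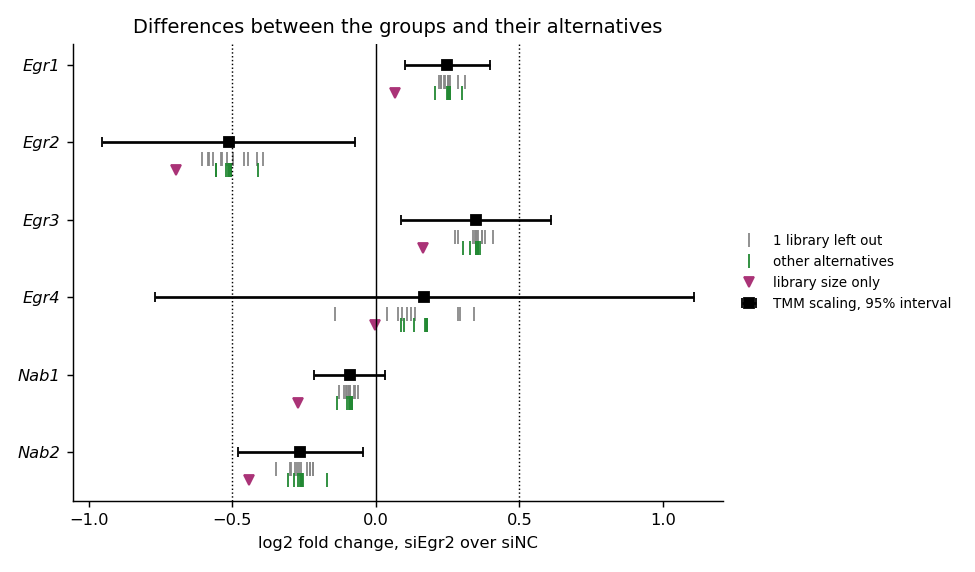
Log2 fold change of siEgr2 over siNC for each gene, with the 95% interval of edgeR's fit (black), the fits that each left out 1 library (grey), other alternatives (green) and scaling by library size only (purple). Dotted lines mark the threshold of 0.5 in either direction. All intervals but those of Egr4 and Nab1 leave out 0, library size only moves every gene to the left, and only Egr4 changes sign.

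The balance between the family members was compared within each library, where it does not depend on scaling. The log2 ratio of Egr2 to Egr1 counts was -4.21, -4.34, -4.33, -3.68, -4.45 and -3.89 in siNC replicates 1 to 6. In siEgr2 replicates 1 to 6 it was -5.61, -5.29, -4.74, -4.44, -4.87 and -4.55. All siEgr2 libraries but replicate 4 lay below every siNC library, and replicate 4 lay just above the lowest, siNC replicate 5. The mean log2 ratio was -4.15 ± 0.30 in siNC and -4.92 ± 0.45 in siEgr2 (SD, n = 6), a difference of -0.77 (standard error 0.22; two-sided exact permutation test, p = 0.00433, where 0.00216 is the smallest p possible). In linear terms there were 0.0563 Egr2 counts for each Egr1 count in siNC and 0.0331 in siEgr2. A lower Egr2 and a higher Egr1 both enter this ratio, which shows unequal change and not which gene moved. The log2 ratio of Nab2 to Nab1 was -0.66 ± 0.16 in siNC and -0.84 ± 0.23 in siEgr2 (SD, n = 6), a difference of -0.17 (standard error 0.11; two-sided exact permutation test, p = 0.145). Without siEgr2 replicate 5, the library with the highest Nab2, this difference was -0.26 (exact permutation test, p = 0.00866).

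**Figure D4:**
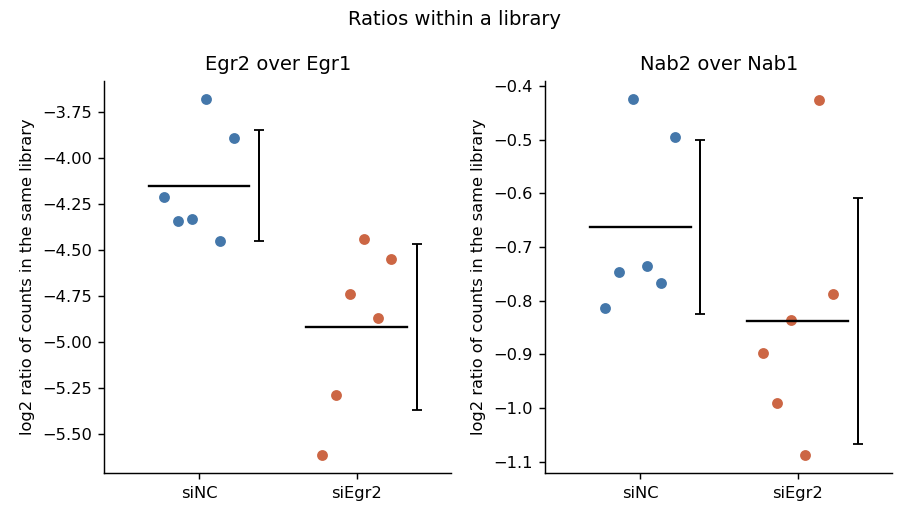
Log2 ratio of counts within each library for Egr2 over Egr1 (left) and Nab2 over Nab1 (right), with the group mean (bar) and SD (bracket, n = 6). The Egr2 to Egr1 ratios of the groups barely overlap, while in the right panel siEgr2 replicate 5 lies among the highest siNC libraries.

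As a share of the summed level of the 4 Egr genes per kilobase, Egr1 made up 85.2% ± 0.999 in siNC and 87.1% ± 1.12 in siEgr2 (SD, n = 6). Egr2 made up 6.43% ± 1.37 in siNC, from 5.18% to 8.67%, and 3.90% ± 1.09 in siEgr2, from 2.36% to 5.19%. Egr3 had 7.20% and 7.86%, and Egr4 1.13% and 1.11%. The summed Egr level was thus set mainly by Egr1 in both groups. Per kilobase, the sum of the 4 Egr genes over the sum of Nab1 and Nab2 was 0.906 ± 0.0818 in siNC, from 0.807 to 1.03, and 1.20 ± 0.129 in siEgr2, from 1.04 to 1.35. The groups did not overlap in this quotient, which was formed after the values of the members were seen and was not tested.

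Within a group the members did not vary together beyond what the number of libraries can show. Over 30 combinations of gene pair and group, 2 Pearson correlations and 2 Spearman correlations had an exact permutation p under 0.05, and 0 of either kind had an adjusted p under 0.05, the smallest being 0.146 and 0.350. Egr1 and Nab2 had r = 0.96 over the 6 siNC libraries (exact permutation test, p = 0.00556, adjusted p = 0.146) and rho = 0.83 (exact permutation test, p = 0.0583). This relation rests on the 2 siNC libraries with the highest Egr1, since r was 0.61 without the 2 farthest from the median. In siEgr2 the same pair had r = 0.098 (exact permutation test, p = 0.846). Egr1 and Egr3 had rho = 0.89 in siNC (exact permutation test, p = 0.0333, adjusted p = 0.350) and r = 0.67 (exact permutation test, p = 0.143), with r = 0.90 without the 2 farthest libraries. Egr3 and Egr4 had r = -0.82 in siEgr2 (exact permutation test, p = 0.00972, adjusted p = 0.146) and rho = -0.89 (exact permutation test, p = 0.0333), and -0.88 without the 2 farthest libraries, on few Egr4 counts. Each member was also compared with about 12399 other genes over the 12 libraries after subtracting each group's mean, as a description. The highest of so many correlations over 12 libraries can be high by selection alone. The genes most like Egr2 were Ctbp2 (r = 0.95), Wdfy3 (r = 0.93) and Stmn1 (r = 0.92), and those most like Egr1 were Tnfrsf1a (r = 0.92), Aldh18a1 (r = 0.92) and Dusp4 (r = 0.90). For Egr3 these were Npc2 (r = 0.90), Mfsd5 (r = 0.89) and Lhfp (r = 0.89), and for Egr4 Zranb1 (r = 0.92), Prkdc (r = 0.88) and Tafazzin (r = 0.86). For Nab1 they were Numa1 (r = 0.90), Bach1 (r = 0.88) and Gbp7 (r = 0.87), and for Nab2 Zfp7 (r = 0.91), Ifngr2 (r = 0.91) and Ttc9b (r = 0.90). No member of the 6 was among the 3 nearest genes of another, where Egr4 was too low to be among the genes compared. All points share the libraries and their depth.

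Upstream of the Egr genes, 21 genes of SRF, its cofactors and the ERK pathway with its feedback inhibitors were tested. Of these, 2 were called lower (9.52%, against 5.08% of all tested genes called lower) and 0 higher, and the median log2 fold change was -0.073, against 0.0046 for all tested genes. Mrtfb, a coactivator of SRF, fell from 28.7 ± 3.19 to 15.1 ± 1.20 CPM (SD, n = 6; log2 fold change -0.93, adjusted p = 1.95e-06, edgeR). Dusp5, a nuclear phosphatase that switches ERK off, fell from 7.93 ± 0.586 to 4.60 ± 1.25 CPM, at -0.79 (adjusted p = 0.00185, edgeR). At the adjusted p alone, 5 genes were lower and 1, the feedback inhibitor Spry4, was higher at 0.29 (0.10 and not past the test with library size only), and at an unadjusted p under 0.05 these numbers were 7 and 2, beside 11.3% and 8.57% of all tested genes at the adjusted p and 16.9% and 15.1% at the unadjusted p. DESeq2 and limma-voom each called 2 lower and 0 higher (5.54% and 5.26% of all tested genes were called lower), and library size only called 4 lower and 0 higher (10.5% of all lower).

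The immediate early genes, which answer the same signals as the Egr genes, were all 30 tested, and 4 were called lower (13.3%, against 5.08% of all tested genes called lower) and 0 higher, with a median log2 fold change of -0.16. Ier3, a stress and survival gene, fell from 27.8 ± 2.96 to 16.3 ± 1.87 CPM (log2 fold change -0.77, adjusted p = 2.48e-05, edgeR). Ccn1, a secreted matrix protein gene, fell from 164 ± 13.0 to 106 ± 7.87 CPM (-0.64, adjusted p = 1.46e-06, edgeR), and Gadd45b, a growth arrest gene, from 22.3 ± 5.02 to 14.5 ± 1.52 CPM (-0.62, adjusted p = 0.00288, edgeR). Zfp36, which speeds the decay of AU-rich mRNAs, fell from 16.1 ± 1.25 to 11.02 ± 1.51 CPM (-0.55, adjusted p = 0.00101, edgeR), and its call was lost without siEgr2 replicate 1, at -0.49. Jun, the AP-1 subunit with the highest level of the others, had 219 ± 17.1 and 227 ± 11.9 CPM (0.051, adjusted p = 0.546, edgeR). With library size only Jun was at -0.13 (adjusted p = 0.0471, edgeR) and not called. At the adjusted p alone 9 genes were lower (11.3% of all tested genes were) and 2 higher (8.57%), Nr4a1 (0.42) and Myc (0.34), of which Myc did not pass with library size only (0.16, adjusted p = 0.0966, edgeR). At an unadjusted p under 0.05, 14 were lower and 5 higher, beside 16.9% and 15.1% of all tested genes. Scaling by library size only called 11 of these genes lower, where it called 10.5% of all genes lower, DESeq2 called 5 (5.54% of all) and limma-voom 4 (5.26% of all), each with 0 higher.

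The partner list, which holds subunits of NuRD and factors that act with Egr2 or on it, contained 19 genes, of which 1 was called higher (5.26%, against 2.63% of all tested genes called higher) and 0 lower, with a median of 0.052. Pou3f1 (also called Oct6), a POU factor that comes before Egr2 in Schwann cells, rose from 14.3 ± 2.56 to 23.4 ± 1.27 CPM (SD, n = 6; log2 fold change 0.71, adjusted p = 0.000206, edgeR). Sox10, the glial factor that partners Egr2 on myelin genes, had 605 ± 19.3 CPM in siNC and 676 ± 18.9 CPM in siEgr2, a log2 fold change of 0.16 that passed the adjusted p (0.00114, edgeR) but not the fold change threshold, and that turned to -0.022 with library size only. Of the NuRD subunits, Gatad2b had the largest log2 fold change of the list, 0.93 (adjusted p = 0.146, edgeR), and Mbd3 passed the adjusted p at 0.16 (0.0368, edgeR). Chd4, Hdac1 and Hdac2, through which Nab proteins repress, had log2 fold changes of -0.017, -0.051 and 0.058, with adjusted p of 0.782, 0.543 and 0.428 in edgeR's test. At the adjusted p alone 3 genes were higher (8.57% of all tested genes were) and 0 lower, and at an unadjusted p under 0.05 these were 5 (15.1% of all) and 0. DESeq2 and limma-voom also called 1 higher and 0 lower, where they called 3.36% and 2.6% of all tested genes higher. With library size only, the median of this list was -0.13, below 0, beside a median of -0.18 for all genes.

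Downstream, the list of myelin program genes that Egr2 drives in Schwann cells had 17 of its 18 genes tested, with 0 called in either direction and a median of -0.14. At the adjusted p alone 4 were lower (11.3% of all tested genes were) and 0 higher, and at an unadjusted p under 0.05 in edgeR's test 8 were lower (16.9% of all) and 0 higher. DESeq2 and limma-voom called 0 of them, and scaling by library size only called 3 lower, where it called 10.5% of all tested genes lower. Mbp, which encodes a structural protein shared by central and peripheral myelin, had 1830 ± 134 CPM in siNC and 1510 ± 53.0 CPM in siEgr2 (SD, n = 6; log2 fold change -0.28, adjusted p = 0.000228, edgeR), and missed the fold change threshold. Pmp22 (-0.49) and Fa2h (-0.26) were also among the 4. The summed OL markers, Mbp among them, were lower by their ranges as well, as given above, and their part in this list was not tested.

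Of 10 genes that fall as Egr2 rises in Schwann cells, 9 were tested, and 1 was called lower (11.1%, beside 5.08% of all tested genes, so 1 gene sets this share) and 0 higher. The median was 0.064 and became -0.12 with library size only, beside a median of -0.18 for all tested genes. Id4, an inhibitor of differentiation also expressed by astrocytes, fell from 63.4 ± 4.22 to 42.7 ± 4.98 CPM (SD, n = 6; log2 fold change -0.57, adjusted p = 3.85e-05, edgeR). Ccnd1, a cyclin of G1 phase, had 781 ± 118 and 824 ± 59.3 CPM (0.077, adjusted p = 0.613, edgeR). At an unadjusted p under 0.05 in edgeR's test 2 genes were higher and 2 lower, beside 15.1% and 16.9% of all, and DESeq2 and limma-voom each called 1 lower and 0 higher (5.54% and 5.26% of all lower), and library size only 2 lower and 0 higher (10.5% of all lower).

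Among 18 genes known as Egr1 targets in other cells, 6 were called lower (33.3%, against 5.08% of all tested genes called lower) and 0 higher, with a median of -0.16. Pdgfb, a growth factor gene, fell from 14.3 ± 1.96 to 7.65 ± 1.53 CPM (SD, n = 6; log2 fold change -0.90, adjusted p = 0.000173, edgeR). Cd44, the hyaluronan receptor, fell from 113 ± 15.5 to 66.6 ± 9.55 CPM (-0.76, adjusted p = 0.000152, edgeR). Tgfb1 was called at -0.75 (adjusted p = 0.0486, edgeR), but the call was lost in 10 of the 12 fits that each left out 1 library and was kept only without siNC replicate 1 or siEgr2 replicate 2. The called genes also included Gadd45b, an immediate early gene here as well, and Icam1 (-0.56). Fn1, the most abundant of the rest, had 690 ± 57.7 and 581 ± 107 CPM (-0.25, adjusted p = 0.162, edgeR). DESeq2 called 6 of the list lower (5.54% of all tested genes), limma-voom 5 (5.26%) and library size only 7 (10.5%), each with 0 higher, and at an unadjusted p under 0.05 in edgeR's test 9 were lower and 1 higher, beside 16.9% and 15.1% of all. Some of them, such as Cd44, are also expressed by astrocytes, whose summed markers were lower in siEgr2, and the part of that in the count was not tested. Pdgfra, a receptor for PDGF and a precursor marker, rose from 522 ± 33.9 to 767 ± 26.9 CPM (log2 fold change 0.56, adjusted p = 1.65e-07, edgeR). With library size only it was at 0.37 and not called. Of the PDGF ligand genes in this list, Pdgfb was lower. The more abundant Pdgfa (mean log2 CPM 6.25, against 3.50 for Pdgfb) was not called (-0.18, adjusted p = 0.145, edgeR).

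**Figure D5:**
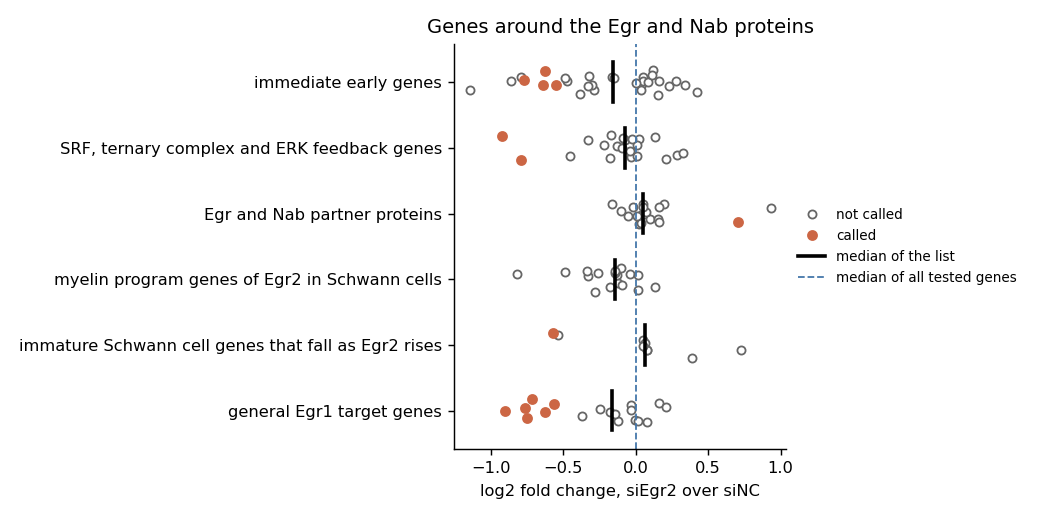
Log2 fold change of siEgr2 over siNC for every tested gene of the 6 lists, with called genes filled, the median of each list as a black bar and the median of all tested genes (0.0046) as a dashed line. Called genes lie on the lower side except Pou3f1. With library size only, the medians of the partner list (-0.13) and of the immature Schwann cell list (-0.12) turn below 0. The median of all tested genes is then -0.18.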

How the data were processed

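The authors extracted total RNA with TRIzol and sequenced it on the Illumina platform as reads of 50 bp. They deposited raw counts per gene symbol, without normalization. The submitters' processing notes name the build mm10. The aligner, the counting program, the annotation and the use of strand are not given in the sources used here, nor is the test behind the thresholds of the study. The labels of the siNC libraries also mention siEgr2 in their protocol text, and groups were taken from the titles. The 1 entry without a gene name was left out. No library was a copy of another, since the chi-square per gene between libraries of a group was 7.09 to 36.7 over 30 pairs.

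The analysis used R 4.3.3 and edgeR 4.0.16 (filterByExpr, TMM, quasi-likelihood test with robust estimation, no covariate) and Benjamini-Hochberg adjustment. Single values were compared by two-sided exact permutation tests over all 924 assignments, on log2(CPM + 0.5) for genes and log2 of counts plus 0.5 for ratios. The p-values of these comparisons were not adjusted over genes or ratios. DESeq2 1.42.0 and limma 3.58.1 (voom) were alternatives, next to other scalings, filters, thresholds, a replicate block, thinning to the smallest library and leaving out each library. The procedure was tested on simulated counts. CPM was divided by exon length from GENCODE M21 (GRCm38), in which 95.6% of the tested genes had a symbol. Same-numbered libraries did not deviate together (correlations of -0.057 to 0.073), so the numbers were not taken as pairs. Poisson intervals cover counting error only.

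The members and the gene lists were chosen with earlier results of these data known. Besides the 6 members, genes were named if they overlapped a member, as the most abundant or the up to 4 largest called genes of a list (mean log2 CPM of at least 0), or as the 3 genes most like a member (mean log2 CPM of at least 2), and Pdgfra and Mbp were named as genes of the study. Cell type markers were named from their lists. Spry4, Nr4a1, Myc, Gatad2b, Mbd3, Chd4, Hdac1, Hdac2, Pmp22, Fa2h, Icam1 and Pdgfa fall outside this rule and were chosen after their values were seen. Some genes that this rule names are not reported here.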

Additional observations from a re-analysis of the deposited data

Results flagged for a closer look

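Egr3 stood at 11.9 CPM in siEgr2 replicate 2, while the other siEgr2 libraries lay between 8.96 and 9.81 CPM. The gap to the nearest of them was 0.709 of the range of the group, above Dixon's 95% critical value for 6 samples. Of 16 groups of 6 values examined this was the only such library, where chance alone would give 0.8. Without this library, the log2 fold change of Egr3 was 0.29 (adjusted p = 0.138, edgeR).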

How the results depend on the processing

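With library size only, a scaling that leaves the ribosomal RNA reads in each total, the median over all tested genes was -0.18 in place of 0.0046. It called 1974 genes (237 higher, 1737 lower) and 1 member, Egr2, at -0.70 (adjusted p = 0.0144), and it brought Egr3 to 0.17 (adjusted p = 0.321), Egr4 to -0.0026 (adjusted p = 0.997), Nab1 to -0.27 (adjusted p = 0.00373) and Nab2 to -0.44 (adjusted p = 0.00569), all by edgeR's quasi-likelihood test. Egr1 missed the adjusted p only here, at 0.068. With structural RNA genes left out, ribosomal RNA among them, 1269 genes and 0 members were called. Egr1 was then at 0.26 (adjusted p = 0.0150, edgeR) and Egr2 at -0.50 (0.1025). Egr3 was at 0.36 (0.0526), Egr4 at 0.18 (0.825), Nab1 at -0.083 (0.351) and Nab2 at -0.25 (0.0925). Scaling by RLE size factors or upper-quartile factors called 1278 or 1280 genes and 0 members. With no fold change threshold 3300 genes and 1 member, Egr1, were called, and with a threshold of 1 on the log2 scale 373 genes were called.

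With any 1 library left out, 1114 to 1339 genes and 0 members were called. Egr1 ranged from 0.22 to 0.31, Egr2 from -0.60 to -0.39, Egr3 from 0.28 to 0.41, Egr4 from -0.14 to 0.34 (10 of 12 fits, since it was too low to be tested without siNC replicate 1 or 3), Nab1 from -0.13 to -0.061 and Nab2 from -0.35 to -0.22. Egr4 turned to -0.14 without siEgr2 replicate 3, the library with its highest level. The Egr2 to Egr1 ratio ranged from -0.86 to -0.63 (exact permutation test, p from 0.00216 to 0.0108) and the Nab2 to Nab1 ratio from -0.26 to -0.12, with -0.26 (exact permutation p = 0.00866) without siEgr2 replicate 5. Thinned to the smallest library, Egr2 was at -0.41 (adjusted p = 0.379) and Nab2 at -0.17 (adjusted p = 0.537) in edgeR's test, and Egr4 was too low to be tested. Without the filter on low counts Nab2 passed the adjusted p (0.0437, edgeR), and with DESeq2 Egr3 did (0.0339).

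With the replicate number as a block, 1124 genes and 0 members were called, Egr1 was at 0.26 (adjusted p = 0.0300), Egr2 at -0.52 (0.0584), Egr3 at 0.36 (0.0985), Egr4 at 0.098 (0.917), Nab1 at -0.093 (0.338) and Nab2 at -0.27 (0.0568), all by edgeR, and the Egr2 to Egr1 ratio had p = 0.0313 in the exact permutation test by pairs, its smallest possible p. The block changed no call of a member. Depth limits Egr4 most, with 3 to 20 counts per siEgr2 library, and then Egr2 with 30 to 65, and the ribosomal RNA share and depth separate the groups in the same way as treatment.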
